A study of Homo sapiens with 6 samples.

Results

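The endothelin system was examined in 2 breast cancer cell lines through its 3 ligands (EDN1, EDN2 and EDN3), its 2 receptors (EDNRA and EDNRB) and the 2 enzymes named for converting the ligands (ECE1 and ECE2). These 7 of the 19771 genes named on the array were chosen by symbol, with every probe that carries it, and 8 of the 24460 gene probes belong to them: ECE1 has 2 probes and each other gene has 1. Both lines derive from MDA-MB-231, a triple-negative and invasive line of human breast cancer, by stable lentiviral transduction under a CMV promoter and are pools of clones that survived blasticidin, not single clones. MB-231-maspin carries maspin joined through a P2A peptide to the green fluorescent protein ZsGreen, and MB-231-control carries ZsGreen alone, so both lines went through the vector, the selection and ZsGreen. Total RNA from each line was labelled with Cy5 and hybridised in 1 colour to 3D-Gene arrays, 3 arrays for each line, to compare gene expression with and without added maspin.

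Endothelins are short vasoactive peptides cut from large precursors. Proprotein convertases first release an inactive intermediate, big endothelin, and the endothelin-converting enzymes, membrane metalloproteases, then cut it to the active peptide. EDN1, the main endothelial endothelin and a strong vasoconstrictor, and EDN2 bind both receptors, whereas EDN3 binds EDNRA only weakly. EDNRA and EDNRB are G protein-coupled receptors: EDNRA drives contraction and growth signals in smooth muscle and stroma, and EDNRB clears EDN1 and signals to nitric oxide release in endothelium and is needed in neural crest cells that become melanocytes and enteric neurons.

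The probe of the gene for maspin itself, SERPINB5 (Entrez Gene 5268), was no brighter in the arrays bearing the maspin label. It read 5.10, 5.61 and 4.11 in the control arrays and 4.20, 2.79 and 4.40 in the maspin arrays, so every direction below rests on the labels of the arrays. All of these values were near the floor, under the mean of 10 required of a probe to be tested. On control replicate 2 the brightest negative control spot, at 9.35, lay above the SERPINB5 probe. The study itself reported more maspin, both as transcript and as protein, in the maspin line than in its control. Its assays were RT-qPCR and western blot, which were not analysed here. The probe sequences were not used here, so whether that probe reads the part of the transcript carried by the vector is not known. All values below are the authors' globally normalized intensities, which are background-subtracted and scaled to a median of 25 on each array, and they are given for replicates 1, 2 and 3 in that order. Such a value measures change of 1 probe between arrays and cannot be set against the level of another probe. Of the probes on an array, 87.1% to 91.3% had a value, and the rest were left blank as close to the background. The arrays did not divide by line throughout: over 14300 probes the SD of the log2 difference was 0.191 for control replicate 2 against maspin replicate 1, and 0.246 for control replicate 2 against its own replicate 3. Neither the labels nor the study's methods say whether each array had its own culture, so p-values measure only how far these samples spread, and that spread may be technical. In RNA from whole cultures, fewer cells expressing a gene and less RNA per cell cannot be told apart.

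The EDN1 and EDNRB probes were brighter in every array labelled MB-231-maspin than in any control array, by 1.37-fold and 1.89-fold, and neither passed the adjusted threshold in limma. EDN3 was at background on every array. EDN2, EDNRA, ECE2 and 1 of the ECE1 probes overlapped between the lines, and the other ECE1 probe was slightly dimmer on all 3 maspin arrays. Adjusted over 14305 probes, 0 of the 7 member probes tested passed a Benjamini-Hochberg adjusted p of 0.05 in limma, where 0.846% of all probes did (0.531% higher and 0.315% lower). At an unadjusted p under 0.05 limma gave 2 of the 7, EDN1 and EDNRB, both higher, beside 13.6% of all probes (9.83% higher and 3.76% lower). By the methods' t-test, the one that the study names, the count was 0 of 7 after adjustment on either scale (all probes: 0.161% on log2 and 0.154% on linear values). Unadjusted, it gave 2 on log2 values (EDN1 and 1 ECE1 probe), beside 13.9% of all probes, and 3 on linear values (the same 2 probes and EDNRB), beside 14.1%. Without overlap between the lines were 3 of the 7 probes, 2 above and 1 below, beside 20.8% of 14300 probes (14.1% above and 6.71% below).

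**Figure D1:**
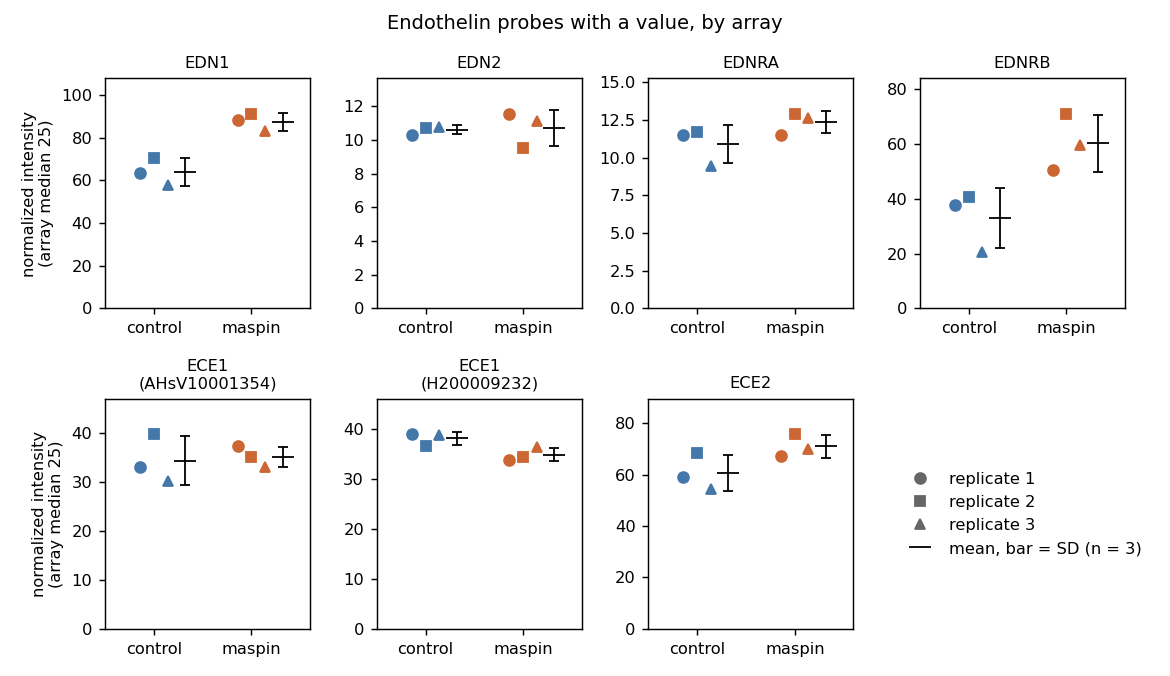
Normalized intensity (array median 25, linear axis from 0) of the 7 endothelin probes that had a value, for each of the 3 control and 3 maspin arrays; marker shape gives the replicate, and the bar beside each group is the mean with the SD (n = 3). EDN1 and EDNRB lie higher on all maspin arrays, and the EDNRB value of control replicate 3 (20.6) lies far under the other control values.

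The ligands come first. The EDN1 probe (H200000580, Entrez Gene 1906) read 63.6, 70.4 and 57.6 on the control arrays (63.9 ± 6.41, SD, n = 3) and 88.2, 91.3 and 82.9 on the maspin arrays (87.5 ± 4.22, SD, n = 3). The lowest maspin value thus lay above the highest control value, and the 3 maspin values lay close together. The log2 fold change, maspin over control, was 0.46 (standard error 0.09, 95% interval 0.24 to 0.68), with an adjusted p of 0.0950 and an unadjusted p of 0.00129 in limma. By p EDN1 was number 194 of the 14305 probes, and 1.73% of them had a larger absolute log2 fold change. An exact permutation test of 3 arrays against 3 gave p = 0.1, two-sided, the smallest it can give. Without control replicate 2, the brightest of the control arrays for EDN1, the log2 fold change was 0.53 and its adjusted p 0.0457. After normexp background correction and quantile normalization the log2 fold change was 0.30, with an adjusted p of 0.0133. The adjusted p of EDN1 was above the threshold under the other alternatives tested, up to 0.467 without maspin replicate 2.

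The promoter of EDN1 is a textbook case of a gene that is read under hypoxia, TGFβ and stress signals, through AP-1, GATA, SMAD, forkhead and hypoxia-inducible factors. RefSeq windows (GRCh38.p14) were held for 5 of the 7 genes (EDN1, EDN2, EDNRA, EDNRB and ECE1), and EDN3 and ECE2 are named only. The windows of EDN1, EDNRB and EDNRA are printed because the results turn on EDN1 and EDNRB, and EDNRA is the other receptor. Each is the 250 bases before the most downstream start listed for the gene, 5′ to 3′ on the gene's strand, and capitals mark matches on either strand to 7 motifs, which are AP-1 (TGACTAA), the site of GATA factors (AGATAA), the hypoxia response core (ACGTG), the SMAD box (CAGAC), forkhead (GTAAACA), NF-kB (GGGNNNTCC) and the TATA box (TATAAA).
EDN1 promoter, chr6:12290111-12290360, plus strand: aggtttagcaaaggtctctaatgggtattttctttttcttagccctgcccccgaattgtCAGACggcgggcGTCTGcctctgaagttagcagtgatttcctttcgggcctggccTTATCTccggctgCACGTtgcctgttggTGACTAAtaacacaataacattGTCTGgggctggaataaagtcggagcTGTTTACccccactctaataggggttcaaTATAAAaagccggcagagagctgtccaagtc
EDNRB promoter, chr13:77918832-77919081, minus strand: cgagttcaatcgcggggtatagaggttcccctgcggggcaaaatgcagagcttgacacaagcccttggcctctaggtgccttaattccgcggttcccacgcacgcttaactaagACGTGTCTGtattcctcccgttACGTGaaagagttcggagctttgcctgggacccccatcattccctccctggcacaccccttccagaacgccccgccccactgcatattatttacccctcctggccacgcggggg
EDNRA promoter, chr4:147480847-147481096, plus strand: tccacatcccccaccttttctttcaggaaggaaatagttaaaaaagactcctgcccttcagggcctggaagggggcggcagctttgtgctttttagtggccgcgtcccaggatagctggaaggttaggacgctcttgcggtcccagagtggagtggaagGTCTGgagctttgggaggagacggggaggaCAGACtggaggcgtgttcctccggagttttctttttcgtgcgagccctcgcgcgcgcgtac
RefSeq lists 3 windows for EDN1 and 2 for EDNRB. The EDN1 window printed held 6 of the 7 motifs, all but NF-kB, and its other windows held 2 and 1. The motifs were chosen as sites of factors already known for EDN1. Its count thus follows in part from that choice and is no result about EDN1, and the shares of all windows do not test it. Its TATA box began 31 bases before the start, the forkhead match 60, AP-1 108, the hypoxia core 123 and GATA 136, and SMAD boxes began 191, 179 and 86 bases before it. Over 34943 RefSeq windows of the same length, 1.62% held the AP-1 letters, 9.19% GATA, 18.5% the hypoxia core, 38.0% the SMAD box, 2.98% forkhead, 18.4% NF-kB and 10.8% the TATA box. The EDNRB window held the hypoxia core at 136 and 114 bases before the start and a SMAD box at 132 that overlaps the first of them, and its other window held 3 motifs, NF-kB among them. The EDNRA window held only SMAD boxes, at 91 and 61. A match of letters is a description of the window and was not tested as a binding site.

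EDN2, a peptide close to EDN1 in sequence and receptor binding, was dim and flat. Its probe (H200000365, Entrez Gene 1907) read 10.3, 10.7 and 10.8 on the control arrays and 11.6, 9.50 and 11.1 on the maspin arrays, so the maspin values lay on both sides of the control values. The means were 10.6 ± 0.267 and 10.7 ± 1.08 (SD, n = 3 each), and the log2 fold change was 0.01 (95% interval -0.20 to 0.22, adjusted p = 0.971 in limma). Its sign turned when control replicate 1, maspin replicate 1 or maspin replicate 3 was left out.

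EDN3, the ligand that acts with EDNRB in neural crest cells, had no normalized value on any of the 6 arrays. Its probe (AHsV10001778, Entrez Gene 1908) gave a raw intensity of 67.7, 70.0 and 70.7 on the control arrays and 68.3, 72.0 and 66.9 on the maspin arrays. The background subtracted on the same arrays was 69.1, 68.8 and 69.8, and 69.1, 70.3 and 67.8. Raw signal minus background thus ran from -1.46 to 1.69 and fell on both sides of 0 in both lines, so no fold or test is given. The lowest normalized value that the arrays list for any spot, control spots included, was 0.882 to 1.14, and EDN3 lay under it on each.

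Of the receptors, EDNRA, the receptor selective for EDN1 and EDN2, was dim. Its probe (H300022233, Entrez Gene 1909) read 11.5, 11.7 and 9.43 on the control arrays and 11.5, 12.9 and 12.7 on the maspin arrays. Maspin replicate 1 lay within the control values, and the other 2 maspin arrays lay above them. The means were 10.9 ± 1.26 and 12.4 ± 0.754 (SD, n = 3 each), with a log2 fold change of 0.19 (95% interval -0.05 to 0.43, adjusted p = 0.473 in limma).

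EDNRB, the receptor that binds all 3 endothelins alike, had the largest difference among the 7 probes tested. Its probe (H300019438, Entrez Gene 1910) read 37.6, 40.8 and 20.6 on the control arrays (33.0 ± 10.9, SD, n = 3) and 50.3, 71.1 and 59.4 on the maspin arrays (60.3 ± 10.4, SD, n = 3). All maspin values lay above all control values, while control replicate 3 lay well under the other 2 control arrays. The log2 fold change was 0.92 (standard error 0.25, 95% interval 0.34 to 1.50), a fold of 1.89 with an interval of 1.26 to 2.82. Its adjusted p was 0.176 and its unadjusted p 0.00645 in limma, and an exact permutation test gave p = 0.1, two-sided. Only 0.315% of the probes tested had a larger absolute log2 fold change, while EDNRB was number 521 by p, and its residual SD of 0.420 was exceeded in only 0.636% of probes. The study had already listed EDNRB among the genes induced in MB-231-maspin on these arrays, and the members were chosen with earlier results known. The size, p and rank of the EDNRB difference thus follow in part from that choice and are a description. Without control replicate 3 the log2 fold change was smaller, 0.61, and the adjusted p was 0.0385, past the threshold. With normexp and quantile normalization it was 0.54 (adjusted p = 0.0876). The transcript that the array lists for this probe is a predicted one that no gene in the current RefSeq table holds, and the probe was matched to EDNRB by its Entrez identifier.

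The receptors were also compared within each array, since the ratio of their probes does not depend on how the array was scaled. The log2 ratio of EDNRB to EDNRA was 1.71, 1.80 and 1.13 on the control arrays and 2.13, 2.46 and 2.23 on the maspin arrays. The lines did not overlap, and control replicate 3 again lay lowest. The ratio holds the same EDNRB values over a dim EDNRA probe, so it is no support separate from the EDNRB result. The mean ratio was 0.73 higher in MB-231-maspin on the log2 scale (exact permutation p = 0.1, two-sided, the smallest that 3 against 3 arrays allow). Only its change between lines can be read, as the probes may bind with different strength.

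**Figure D2:**
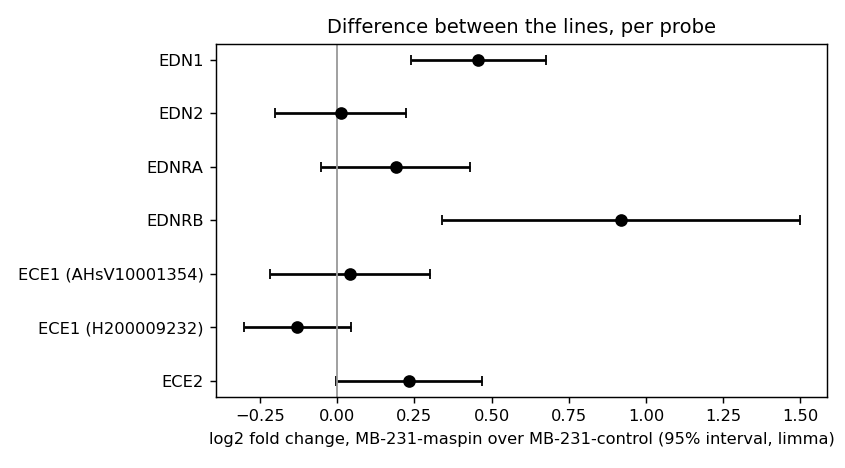
Log2 fold change of each endothelin probe, MB-231-maspin over MB-231-control, with its 95% interval from limma (3 arrays a line). The intervals of EDN1 and EDNRB lie above 0, those of the other 5 probes include 0, and the EDNRB interval (0.34 to 1.50) is the widest.

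Among the converting enzymes, the ECE1 probes moved in different directions by small amounts. ECE1, the enzyme that makes EDN1 from big endothelin in most tissues (Entrez Gene 1889), was read by probes AHsV10001354 and H200009232, which the array lists for the same transcript. AHsV10001354 read 33.2, 39.9 and 30.2 on the control arrays and 37.3, 35.2 and 33.2 on the maspin arrays. Here the maspin values lay within the range of the control values, with a log2 fold change of 0.04 (95% interval -0.22 to 0.30, adjusted p = 0.906 in limma) whose sign turned without control replicate 3 or maspin replicate 1. H200009232 read 39.1, 36.6 and 38.9 on the control arrays (38.2 ± 1.37, SD, n = 3) and 33.8, 34.6 and 36.4 on the maspin arrays (34.9 ± 1.34, SD, n = 3). All 3 maspin values lay under the control values, the nearest by a narrow gap, and the log2 fold change was -0.13 (95% interval -0.30 to 0.04, adjusted p = 0.490 in limma). The log2 ratio between these probes differed by -0.17 between the lines (exact permutation p = 0.3, two-sided) and overlapped.

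ECE2, a related enzyme that works at acidic pH and is known mainly from neural tissue, was the last of the 7 genes. Its probe (H300020301, Entrez Gene 9718) read 58.9, 68.4 and 54.6 on the control arrays and 67.2, 75.8 and 70.0 on the maspin arrays. Control replicate 2 lay above maspin replicate 1, so the lines overlapped. The means were 60.6 ± 7.09 and 71.0 ± 4.37 (SD, n = 3 each), with a log2 fold change of 0.23 (95% interval -0.00 to 0.47, unadjusted p = 0.0529, adjusted p = 0.372 in limma). RefSeq now assigns the transcript listed for this probe to EEF1AKMT4, the neighbouring methyltransferase gene, so the value may be that of EEF1AKMT4 and is given under ECE2 only because the array names it so.

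All 42 normalized values of the 7 tested probes lay above the brightest negative control spot of their own array, the closest at 1.15 times that spot. Without the scaling of each array to its median, every probe shifted by the same 0.103 toward MB-231-maspin on the log2 scale, so such values widen the differences that were higher. EDN1 in background-subtracted intensity was then at 124, 140 and 117 on the control arrays and 195, 226 and 147 on the maspin arrays. EDNRB was at 73.2, 81.3 and 41.6 on the control arrays and at 112, 176 and 106 on the maspin arrays. The difference of the log2 means was 0.56 for EDN1, 1.02 for EDNRB, 0.29 for EDNRA, 0.11 for EDN2, 0.34 for ECE2, and 0.14 and -0.03 for the ECE1 probes AHsV10001354 and H200009232, with no test. The maspin values of EDN1 and EDNRB lay above the control values, and those of the other 5 probes overlapped with them, H200009232 included.

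**Figure D3:**
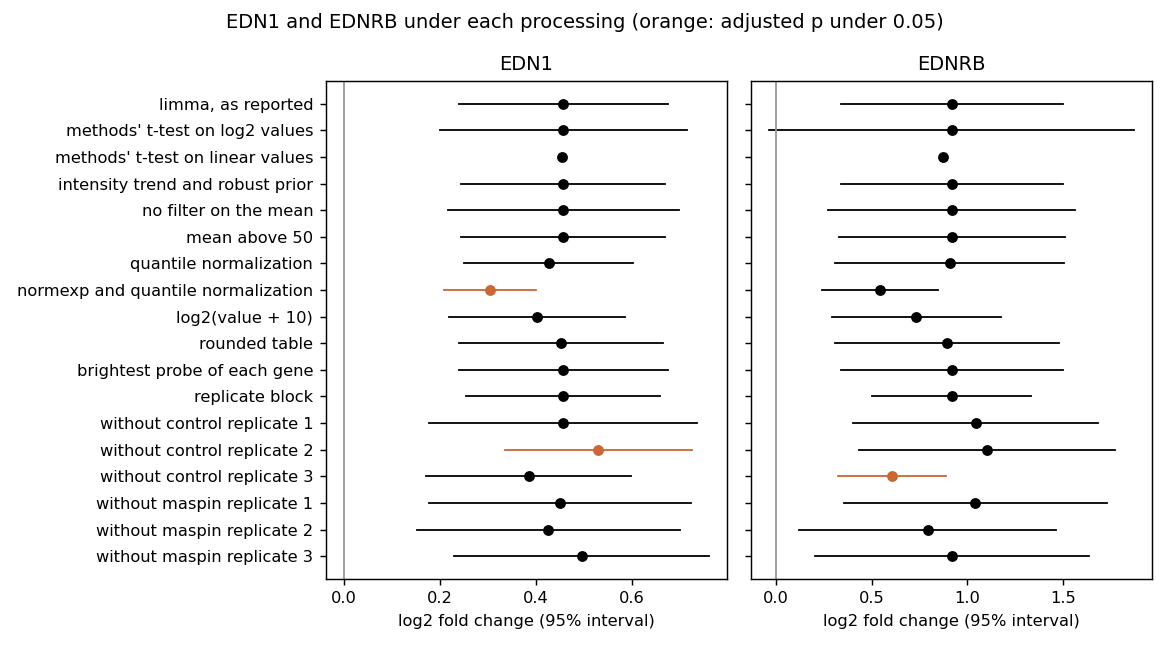
Log2 fold change of EDN1 and EDNRB with its 95% interval under limma as reported and 17 alternatives that keep a scaling of the arrays (no interval for the methods' t-test on linear values), orange where the adjusted p was under 0.05. Each of these values lies above 0, EDN1 between 0.30 and 0.53 and EDNRB between 0.54 and 1.10, and few pass the threshold.

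The probes whose pattern over the 6 arrays was most like that of EDNRB were ranked by the root mean square difference of their mean-centred log2 values among 14299 other probes tested. PDE1C, a calcium- and calmodulin-activated phosphodiesterase, was nearest at 0.130, and FAM133A at 0.174, C1orf198 at 0.182 and VPS13B, a lipid transfer protein of the Golgi, at 0.184 were also among the 5 nearest. The EDNRB values themselves spread by 0.573 about their mean on the same measure. PDE1C read 9.25, 10.03 and 6.27 on the control arrays and 12.6, 20.3 and 17.5 on the maspin arrays. Its control mean lay under the filter, so PDE1C was tested only because of its maspin mean. On control replicate 2 it lay close to the brightest negative control spot, at 9.35. Like EDNRB, these 4 were lowest on control replicate 3 and highest on maspin replicate 2, and 2 of them did not overlap between the lines. These probes were chosen for that pattern, so their differences are a description.

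**Figure D4:**
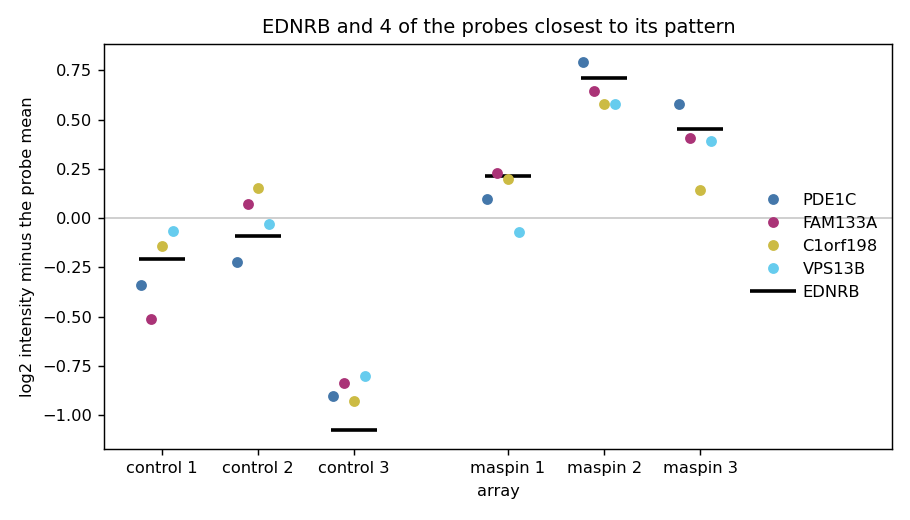
Log2 normalized intensity minus the mean of the probe over the 6 arrays, for EDNRB (black bars) and 4 of the 5 tested probes closest to its pattern (points, one colour per probe). All 5 probes drawn are lowest on control replicate 3 and highest on maspin replicate 2.

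Around the members, 6 lists of 74 genes were read by the brightest probe of each gene, and 40 genes passed the filter of a mean above 10 in either line. In limma 0 of these 40 passed the adjusted threshold, and the methods' t-test also gave 0 (all genes: 0.533% higher and 0.321% lower in limma). At an unadjusted p under 0.05, 5 were higher and 2 lower, beside 9.4% and 3.81% of all genes. Of the 40, 26 had a log2 fold change above 0. The median over all genes was itself above 0, at 0.04, so no lean of the listed genes is read from that count. The genes that make or break down the peptides were mostly dim, with 2 of 10 tested (median log2 fold change 0.13, all genes 0.04). Of these PCSK7, a proprotein convertase, read 18.5, 20.0 and 18.9 on the control arrays and 22.9, 22.0 and 23.0 on the maspin arrays. Its groups did not overlap, with a log2 fold change of 0.24 (adjusted p = 0.213 in limma).

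Downstream of the receptors, 7 of 9 G protein alpha subunits were tested (median log2 fold change 0.08). The smallest p among them was that of GNA12 at 0.42 (adjusted p = 0.442), and its control values (200, 298 and 149) spanned the maspin values (256, 293 and 285). Of 15 calcium and kinase effectors 11 were tested (median 0.12), 3 higher and 1 lower unadjusted. ROCK2, a kinase that promotes contraction, had the smallest p, with values of 55.0, 65.5 and 53.3 on the control arrays and 71.4, 74.8 and 72.7 on the maspin arrays. Its log2 fold change was 0.34 (adjusted p = 0.188 in limma), and without control replicate 2 it was 0.43 (adjusted p = 0.0457). Over all alternatives its adjusted p ran from 0.0457 to 0.597.

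Of 12 genes of receptor desensitisation 8 were tested (median log2 fold change 0.01). RGS2, which speeds the shut-off of Gq proteins, was dimmer on all 3 maspin arrays, at 62.1, 60.4 and 58.2 against 78.9, 87.5 and 73.7 on the control arrays. Its log2 fold change was -0.41 (standard error 0.09, adjusted p = 0.107 in limma), and the adjusted p was 0.0345 with quantile normalization, 0.00599 with normexp and quantile normalization and 0.0327 without control replicate 3. It was above the threshold under the other alternatives, up to 0.467. All 7 listed transcription factors of EDN1 were tested (median 0.05), and the smallest p was that of FOS, an AP-1 subunit, at a log2 fold change of -0.15 (adjusted p = 0.457). Only 5 of 21 genes of other vasoactive peptide systems were tested (median 0.07). ADM, the vasodilator peptide adrenomedullin, had a log2 fold change of 0.46 (adjusted p = 0.278), with 189, 167 and 124 on the control arrays and 187, 220 and 247 on the maspin arrays, which overlapped.

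**Figure D5:**
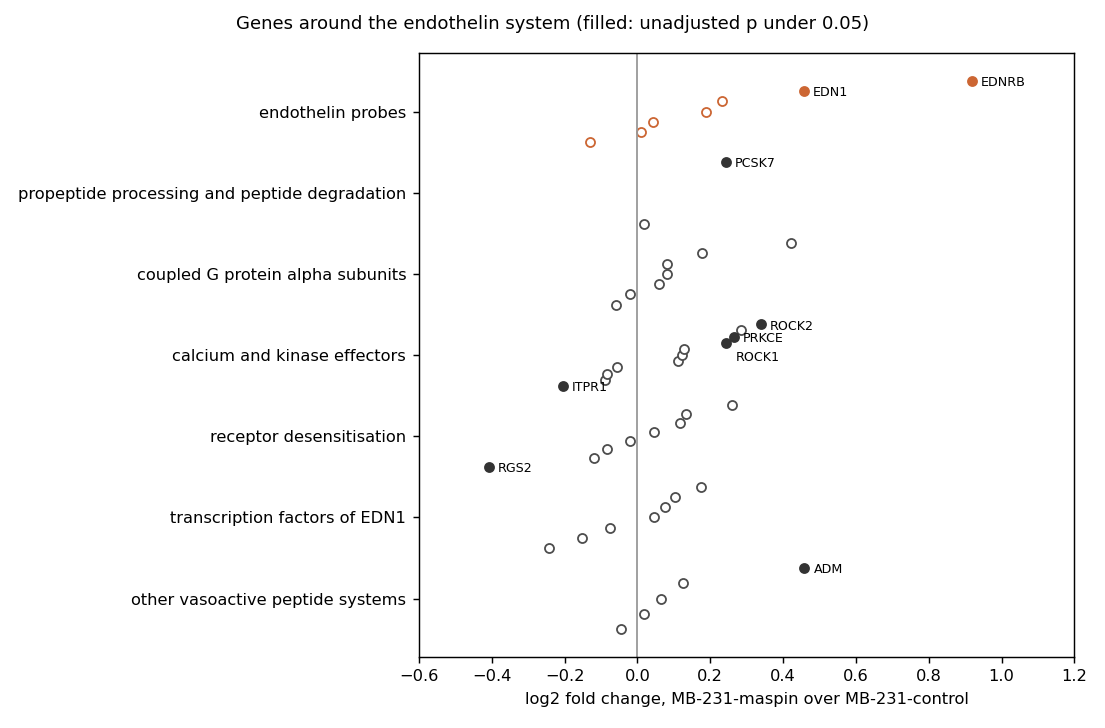
Log2 fold change, MB-231-maspin over MB-231-control, of the 7 endothelin probes (orange) and of the 40 tested genes of 6 lists around them, with filled points at an unadjusted p under 0.05. EDNRB (0.92) lies farthest from 0, and RGS2 (-0.41) is the lowest gene.

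The arrays carried the markers of the line, and 6 of 6 MDA-MB-231 markers were tested with 0 called (VIM at 11687 to 13757). The smallest p among them was that of AXL, at a log2 fold change of 0.21 (adjusted p = 0.462). Markers of other cells that express endothelin receptors, endothelial cells and melanocytes, fell mostly below the filter. Of 8 endothelial markers 3 were tested and 0 called, PECAM1 was blank on 5 of 6 arrays, and the summed level was 195 to 238 on the control and 200 to 219 on the maspin arrays. ESAM had the smallest p of the 3 (log2 fold change -0.13, adjusted p = 0.650). Of 8 melanocyte and neural crest markers 3 were tested and 0 called, with TYR and MLANA blank on all arrays and sums of 222 to 236 and 233 to 253. Of the 3, MITF had the smallest p (log2 fold change 0.27, adjusted p = 0.226), while SOX10 was at -0.21 (adjusted p = 0.328) and FOXD3 at -0.08 (adjusted p = 0.834), both opposite in sign to MITF. Of 8 luminal and epithelial markers 6 were tested and 0 called, with ESR1 blank on all arrays, sums of 1375 to 1582 and 1255 to 1466, and the smallest p for GATA3 (0.30, adjusted p = 0.188). Of 8 leukocyte markers 4 were tested and 3 were called lower in limma, beside 0.321% of all genes. On the log2 scale LCP1 fell by 1.25 (adjusted p = 0.00762), HCLS1 by 0.79 (adjusted p = 0.0112) and ITGB2 by 0.55 (adjusted p = 0.0125). The sums were 277 to 290 on the control and 193 to 201 on the maspin arrays. The fourth marker tested, CD14, was brighter on all 3 maspin arrays (log2 fold change 0.33, unadjusted p = 0.0261, adjusted p = 0.287 in limma). The list was chosen with earlier results of these data known, so its count is no result about leukocyte markers. LCP1 read 18.1, 19.9 and 16.6 on the control arrays and 8.54, 8.38 and 6.15 on the maspin arrays. Its maspin mean of 7.69 lay under the filter, so LCP1 was tested only because of its control mean of 18.2. With no filter on the mean, HCLS1 and ITGB2 missed the threshold in limma (adjusted p = 0.0519 and 0.0532). HCLS1 and ITGB2 also missed it without control replicate 1 or any 1 maspin replicate (adjusted p = 0.0774 to 0.113). HCLS1 and LCP1 missed it by the methods' t-test (0.120 to 0.160). PTPRC, which defines leukocytes, read at most 2.03 and was blank on 2 maspin arrays. Each sum adds probes whose levels cannot be set against each other, and its brightest probe makes up most of it. The sums therefore do not give the level of a cell type. The part of any marker in the EDN1 and EDNRB values was not tested.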

How the data were processed

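Arrays were grouped by their titles as MB-231-control (n = 3) and MB-231-maspin (n = 3). Per the study's methods, the authors hybridised Cy5-labelled RNA to 3D-Gene human mRNA chips, scanned them, subtracted the background mean and scaled each array to a median intensity of 25. The deposited scanner files hold raw, background-subtracted and globally normalized intensity per spot. The deposited series table, treated as a score, repeats these normalized intensities as whole numbers, differing by at most 0.5. The columns that belong to no sample numbered 0. Blank values mark spots near the background, and the number of arrays limits the precision. No slide or scan date was used.

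Named probes with a mean above 10 in either group, as in the methods, and a value on at least 2 arrays of each group were kept. Log2 values of 14305 probes were fitted with limma 3.58.1 (lmFit, eBayes) in R 4.3.3, two-sided, at a Benjamini-Hochberg adjusted p of 0.05, with 4.03 prior and 4 residual degrees of freedom. Intervals are at 95%. Tables and figures used Python 3.11.15, pandas 2.3.3 and matplotlib 3.10.9. The code was tested on simulated data. Symbols turned into dates (33) were restored through Entrez identifiers. EDN3, the only member under the filter, was blank on all arrays, so no fit without the filter could be made for it.

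Genes named are the 7 members with every probe, SERPINB5, the 5 probes nearest to EDNRB (1 of them is not reported here) and, of each list, the genes past the adjusted threshold (at most 4) or, where none passed, the one with the smallest p. VIM, CD14, SOX10, FOXD3 and the markers named as blank or near background were named after their values were seen. The members and lists were chosen with earlier results of these data known. The alternatives tried were the methods' t-test (log2 or linear values), limma's trend and robust options, no filter, a mean above 50, quantile normalization, normexp (offset 50) with quantile normalization, log2(value + 10), the rounded table, the brightest probe of each gene, a block for the replicate number, and leaving out arrays one by one. The values without scaling were chosen after seeing the data and are given as differences of means with no test.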

Additional observations from a re-analysis of the deposited data

How the results depend on the processing

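EDN1 and EDNRB were higher in MB-231-maspin under all 18 alternatives. No member passed the adjusted threshold in the reported fit; 1 did with normexp and quantile normalization (EDN1), and 0 to 1 with an array left out, EDN1 without control replicate 2 (adjusted p = 0.0457) and EDNRB without control replicate 3 (0.61, adjusted p = 0.0385). With arrays left out, the EDNRB log2 fold change ran from 0.61 to 1.10 and that of EDN1 from 0.38 to 0.53. Adjusted p-values over the alternatives ran from 0.0385 to 0.565 for EDNRB and from 0.0133 to 0.467 for EDN1. The sign turned for EDN2 without control replicate 1 (-0.01), maspin replicate 1 (-0.05) or maspin replicate 3 (-0.02), within a range of -0.046 to 0.095 with an array left out. It also turned for ECE1 probe AHsV10001354 without control replicate 3 (-0.047) or maspin replicate 1 (-0.00099), within a range of -0.047 to 0.152; the cause was not tested. EDNRA, ECE2 and ECE1 probe H200009232 kept their direction. Of the listed pathway genes, 0 passed in the reported fit, 1 after quantile normalization and also 1 when normexp preceded it (RGS2 in both), and 0 to 1 with an array left out (ROCK2 without control replicate 2, RGS2 without control replicate 3).

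Over all probes 121 passed. By the methods' t-test the count was 23 (log2 values) and 22 (linear values), and it was 44 with no filter, 46 with a mean above 50, 276 with normexp and quantile normalization, and 32 to 229 with an array left out. The share of higher probes among those called was 62.8%, and 48.4% without control replicate 3 and 84.7% without control replicate 2. Among probes at an unadjusted p under 0.05 it was 72.3%, but 61.1% after quantile normalization alone and 54.3% after normexp as well.

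Same-numbered arrays did not all deviate together (correlations -0.35, 0.48 and 0.20), and only control replicate 2 correlated best with its own number. Such a check on so few arrays cannot show whether same-numbered arrays shared a culture or batch, and the labels give only the number. With the replicate number as a block, 126 probes passed and no member did (EDNRB 0.92, adjusted p = 0.0772; EDN1 0.46, adjusted p = 0.0708).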
